A study of Mus musculus with 4 samples.

Results

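Matrix metalloproteases and their inhibitors were followed through 10 genes, taken by symbol from the 32285 genes listed in each of 4 droplet libraries of mouse left ventricle. They were the 4 tissue inhibitors of metalloproteases (Timp1, Timp2, Timp3 and Timp4), 3 matrix metalloproteases (Mmp2, Mmp3 and Mmp14) and 3 members of the ADAMTS family (Adamts1, Adamts4 and Adamts5). All 10 were detected in every library and passed the minimum of 20 UMIs over the 2 libraries compared. The libraries came from male C57BL/6J wild-type mice, 1 library per condition. Young mice were 3 to 5 months old and aged mice 24 to 26 months old. The I/R libraries were made from hearts with ischemia for 45 min, then reperfusion for 24 h, and the sham libraries from mice whose treatment the labels give as no alteration. How many mice went into each library is not given, and the labels name nuclear RNA where the study's methods describe single cells. Values are UMIs, that is, counted molecules, summed over all barcodes of a library and given as CPM, that is, scaled by the total of the library. CPM was compared between genes without scaling by length, since a UMI stands for a molecule. Whether introns were counted is not stated, and whether counts depended on gene length was not tested.

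Matrix metalloproteases are zinc enzymes that cleave collagens, proteoglycans and other proteins outside the cell, and are made as inactive precursors. TIMPs bind their active sites. ADAMTS proteases carry a related catalytic domain and include the aggrecanases, which cut proteoglycans such as versican. In the heart these families are known for their part in the turnover of the matrix after injury, and fibroblasts, endothelial cells, cardiomyocytes and infiltrating leukocytes are among their known sources.

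With 1 library per condition there was no replicate, no test and no p-value. The intervals given are 95% intervals that cover counting error only, exact Poisson for a level and exact conditional binomial for a ratio, and the spread between mice is not in them. Library totals ran from 25836175 UMIs in young sham to 66767829 in aged I/R, with 91124 to 102883 barcodes. The median barcode held 244 UMIs in young sham and 675 in aged I/R. Barcodes were not called as cells here, and the share of empty droplets among them was not tested. Young sham stood apart: 28.4% of its barcodes had at least 200 detected genes against 55.2% to 98.8% in the others, and Malat1 took 7.34% of its UMIs against 2.22% to 4.33%. Gm42418 took 19.4% of the UMIs in young I/R and 11.5% to 14.0% in the others, and mitochondrial genes 9.98% to 15.6%. The part of these differences in the ratios over young sham was not tested. Between 7.44% and 7.92% of the barcodes of a library were also found in another library. The levels were set by library sums, in which fewer cells of a type and less RNA per cell cannot be told apart. Between the young libraries the median log2 ratio of all genes, I/R over sham, was −0.51, so ratios were also computed after scaling by the median of gene-wise ratios, which adds 0.47 to each log2 ratio of that comparison. It adds −0.09 in aged I/R over sham, 0.15 in aged over young sham and −0.41 in aged over young I/R.

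Promoter sequences are shown for the members at least 2-fold higher in the young I/R library than in its sham library that have an entry in RefSeq (GRCm38.p6), since these are the genes on which the results turn. Of the 10 members 7 had an entry. Each sequence is the 250 bases before the annotated start, 5′ to 3′ on the strand of the gene. Capitals mark TGANTCA, the AP-1 motif, and TATAAA, the TATA box.
Timp1, + strand, chrX:20869916-20870165: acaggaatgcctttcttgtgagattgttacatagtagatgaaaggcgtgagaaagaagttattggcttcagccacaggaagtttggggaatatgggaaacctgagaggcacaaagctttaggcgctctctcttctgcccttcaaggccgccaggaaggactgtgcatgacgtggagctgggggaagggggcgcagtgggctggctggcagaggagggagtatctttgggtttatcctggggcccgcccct
Timp4, − strand, chr6:115252206-115252455: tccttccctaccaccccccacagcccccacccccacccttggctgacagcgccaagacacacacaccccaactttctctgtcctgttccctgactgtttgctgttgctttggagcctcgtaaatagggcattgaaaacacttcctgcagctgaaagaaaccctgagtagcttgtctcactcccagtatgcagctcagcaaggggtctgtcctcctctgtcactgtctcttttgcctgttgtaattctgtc
Mmp3, + strand, chr9:7445572-7445821: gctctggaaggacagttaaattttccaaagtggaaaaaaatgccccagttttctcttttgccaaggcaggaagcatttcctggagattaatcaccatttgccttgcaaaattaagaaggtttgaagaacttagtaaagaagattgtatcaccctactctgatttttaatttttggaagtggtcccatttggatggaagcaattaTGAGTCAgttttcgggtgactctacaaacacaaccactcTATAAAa
Adamts1, − strand, chr16:85803114-85803363: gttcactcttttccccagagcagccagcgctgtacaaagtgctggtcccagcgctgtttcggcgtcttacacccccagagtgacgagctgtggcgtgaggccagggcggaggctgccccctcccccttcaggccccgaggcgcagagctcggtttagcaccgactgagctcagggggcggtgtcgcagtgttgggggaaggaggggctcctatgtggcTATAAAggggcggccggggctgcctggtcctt
The Mmp3 promoter held TGAGTCA 46 bases before the start and TATAAA 7 bases before it. The Adamts1 promoter held TATAAA 32 bases before the start and 3 copies of the GC box GGGCGG. The Timp1 promoter held 1 GC box, on the opposite strand, and the Timp4 promoter none of these. Searched on both strands, TGANTCA was present in 6.75% of 32851 promoters of the same length, TATAAA in 12.4% and GGGCGG in 32.7%. The STAT motif TTCNNNGAA, present in 7.02% of promoters, was in none of the 7. These are matches of letters and not measured binding. The other members lie at chr11:118301069-118355740 (Timp2), chr8:92827291-92853420 (Mmp2), chr9:7445822-7455975 (Mmp3), chr14:54431612-54445364 (Mmp14) and chr1:171250421-171260637 (Adamts4) of GRCm38. Timp2 overlaps Cep295nl on its own strand, so its counts are uncertain to that extent.

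Timp1, a secreted inhibitor that blocks most soluble matrix metalloproteases, had the largest fold between its lowest and highest library among the 10 members. Its level was 3.41 CPM (88 UMIs) in the young sham library against 75.3 CPM (2988 UMIs) after I/R, and 18.5 CPM (764 UMIs) against 45.9 CPM (3065 UMIs) in the aged libraries. Both I/R libraries lay above both sham libraries, and the aged libraries lay between the young ones. The young I/R level was 22.1-fold that of young sham, a log2 ratio of 4.47 (4.16 to 4.79), and the aged I/R level 2.48-fold that of aged sham, a log2 ratio of 1.31 (1.198 to 1.429). Aged sham stood 5.42-fold above young sham, while aged I/R stood below young I/R, with −0.71 (−0.79 to −0.64) as the log2 ratio. The aged minus young difference of the I/R log2 ratio was −3.15 (−3.48 to −2.83), and a difference of −1 or less was found in 4.06% of 15410 genes. Timp1 lies within Syn1 on the opposite strand, at chrX:20870166-20874735 of GRCm38, and shares no exonic base with it. Whether counting used strand is not stated in the sources used here, and Syn1 itself had 7 to 24 UMIs in a library.

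Timp4, an inhibitor known for its expression in the heart, was higher in I/R at both ages. Timp4 was at 18.3 CPM in the young sham library against 47.8 after I/R, and 15.6 against 45.2 in the aged libraries. I/R over sham gave a log2 ratio of 1.39 (1.24 to 1.54) in young and 1.53 (1.41 to 1.66) in aged libraries. The difference between these ratios was 0.15, with an interval of −0.04 to 0.34, and −0.42 with gene-wise scaling. Aged over young I/R was at −0.08, and at −0.49 with gene-wise scaling. Timp4 lies within Syn2 on the opposite strand (chr6:115241892-115252205) and shares 90 exonic bases with it, and Syn2 had 82 to 276 UMIs in a library.

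Timp3, an inhibitor that binds to the matrix and also blocks ADAM and ADAMTS proteases, was the most abundant member in every library. Its level was 128 CPM in the young sham library against 208 after I/R, and 171 against 183 in the aged libraries. The young I/R library was highest, and the aged libraries differed little. As a log2 ratio, I/R over sham came to 0.70 (0.64 to 0.76) in young and 0.10 (0.06 to 0.14) in aged libraries. Timp3 shares 1733 exonic bases with Syn3, on the opposite strand (chr10:86300372-86349506), and Syn3 had 81 to 253 UMIs in a library against at least 3303 for Timp3.

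Timp2, which inhibits metalloproteases and also takes part in the activation of pro-MMP2 by MMP14, was the inhibitor that was lower in I/R at both ages. It was at 60.9 CPM in the young sham library against 43.6 after I/R, and 90.8 against 62.8 in the aged libraries. The I/R to sham log2 ratio was −0.48 (−0.58 to −0.38) in young and −0.53 (−0.60 to −0.47) in aged libraries. With gene-wise scaling the young ratio was −0.02 and the aged ratio −0.63. The aged library was above the young one under both conditions, with log2 ratios of 0.58 in sham and 0.53 in I/R, the latter 0.11 with gene-wise scaling.

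**Figure D1:**
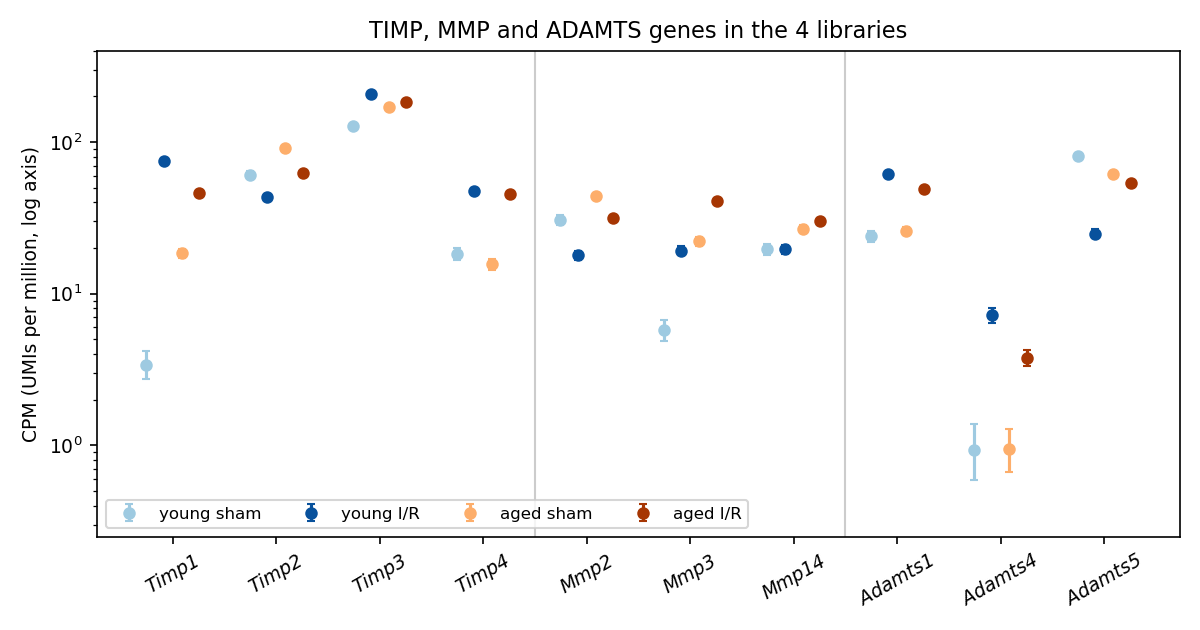
Level of each member in the 4 libraries, as CPM on a log axis, where points are library sums and bars the 95% Poisson intervals of counting error. Timp1 spans 3.41 to 75.3 CPM and Adamts4 0.929 to 7.21 CPM, while Timp3 stays between 128 and 208 CPM.

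Among the 3 metalloproteases, Mmp3, or stromelysin 1, which degrades proteoglycans and activates other metalloprotease precursors, differed most between libraries. It was at 5.73 CPM in the young sham library against 19.2 after I/R, and 22.2 against 41.0 in the aged libraries. Each I/R library lay above the sham library of its age, and the order of aged sham and young I/R turned with the scaling, with log2 ratios over young sham of 1.95 and 1.75 by library totals and of 2.10 and 2.21 with gene-wise scaling. I/R over sham gave a log2 ratio of 1.75 (1.49 to 2.01) in young and 0.88 (0.78 to 0.99) in aged libraries. Aged over young gave a log2 ratio of 1.95 (1.70 to 2.21) in sham and 1.09 (0.98 to 1.21) in I/R, the last of which was 0.68 with gene-wise scaling. In barcodes with at least 200 detected genes, the young I/R ratio of Mmp3 was 2.20 and its ratio of aged over young sham 2.39.

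Mmp2, gelatinase A, a protease of denatured collagen and basement membrane, was lower in I/R. It was at 30.6 CPM in the young sham library against 17.9 after I/R, and 44.1 against 31.6 in the aged libraries. As a log2 ratio, I/R over sham came to −0.77 (−0.92 to −0.62) in young and −0.48 (−0.57 to −0.39) in aged libraries. With gene-wise scaling these were −0.30 and −0.58.

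Mmp14, the membrane-bound protease that activates pro-MMP2, was at 19.6 CPM in the young sham library against 19.6 after I/R, and 26.5 against 29.98 in the aged libraries. The young libraries did not differ beyond counting error, with a log2 ratio of −0.00 (−0.16 to 0.16), which became 0.47 with gene-wise scaling. The aged ratio was 0.18 (0.07 to 0.28).

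Adamts5, an aggrecanase, and Adamts1, a versican-cleaving protease with antiangiogenic activity, lie next to each other on chromosome 16, at 85856173 to 85901828 and 85793827 to 85803113, with a gap of 53059 bases. Their levels ran in opposite directions between sham and I/R. Adamts5 was at 80.7 CPM in the young sham library against 24.9 after I/R, and 61.9 against 53.4 in the aged libraries. Adamts1 was at 23.8 CPM in the young sham library against 61.4 after I/R, and 25.9 against 48.8 in the aged libraries. Adamts5 exceeded Adamts1 in both sham libraries and in aged I/R, and the order was turned in young I/R.

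For Adamts5 the I/R to sham log2 ratio was −1.69 (−1.81 to −1.58) in young and −0.21 (−0.29 to −0.14) in aged libraries. The aged minus young difference was 1.48 (1.35 to 1.61), and 0.92 with gene-wise scaling. A difference of 1 or more was found in 33.8% of genes, so that of Adamts5 was not rare. For Adamts1 the ratios were 1.37 (1.24 to 1.49) in young and 0.91 (0.81 to 1.02) in aged libraries.

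Adamts4, another aggrecanase, was the least abundant member. It had 24 UMIs in the young sham library against 286 after I/R, and 39 against 252 in the aged libraries, or 0.929, 7.21, 0.943 and 3.77 CPM. The sham libraries did not differ beyond counting error, and both I/R libraries lay above them. The I/R to sham log2 ratio was 2.96 (2.35 to 3.62) in young and 2.001 (1.51 to 2.53) in aged libraries.

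Read together, 5 of the 10 members (Timp1, Timp4, Mmp3, Adamts1 and Adamts4) were at least 2-fold higher in the young I/R library than in its sham library, where 3.26% of 15465 genes were. Adamts5 was at least 2-fold lower, where 27.0% of genes were. In the aged libraries 3 members (Timp1, Timp4 and Adamts4) were at least 2-fold higher in I/R and none lower, where 5.65% and 3.02% of 16761 genes were. The median log2 ratio of the members was 1.03 in young and 0.53 in aged libraries, against −0.51 and 0.09 over all genes. With gene-wise scaling Timp3 joined the 5 higher members in young I/R, where 7.02% of genes were higher and 13.2% lower, and the aged counts were 3 and 0, where 4.61% and 3.77% were. The members were chosen with earlier results of these data known.

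Between the sham libraries, Timp1 and Mmp3 were at least 2-fold higher in aged than in young, where 3.48% of 15875 genes were, and no member was 2-fold lower, where 7.21% were. Between the I/R libraries, Mmp3 and Adamts5 were at least 2-fold higher in aged, where 21.3% of 16491 genes were, and no member was 2-fold lower, where 1.58% were. With gene-wise scaling neither was 2-fold higher, where 10.7% of genes were, and Timp1 (log2 ratio −1.13) and Adamts4 (−1.35) were 2-fold lower, where 4.38% were. Between the sham libraries gene-wise scaling left the counts at 2 and 0, where 4.73% and 5.23% of genes were higher and lower. Comparisons that use the same library share its error.

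At a fold of 1.5, 6 members were higher and 2 lower in young I/R over sham, where 6.36% and 46.1% of genes were. In aged I/R over sham 5 were higher and 0 lower, where 16.7% and 9.71% were. Between the sham libraries 2 were higher in aged and 0 lower, where 8.99% and 19.8% were, and between the I/R libraries 4 were higher and 2 lower, where 42.7% and 4.38% were.

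**Figure D2:**
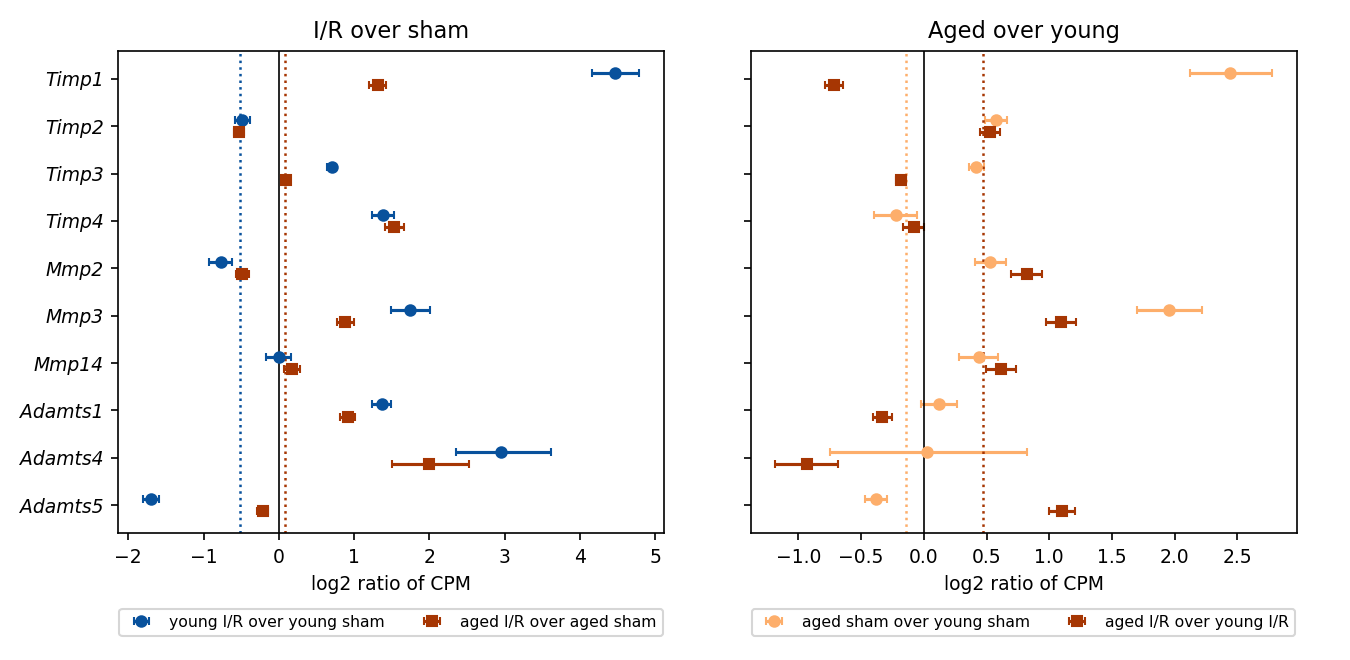
Log2 ratio of CPM for each member, I/R over sham on the left and aged over young on the right, with 95% intervals of counting error and dotted lines at the median of all genes. The young I/R ratio of Timp1 is 4.47 and that of Adamts5 −1.69, while Timp4 lies at 1.39 in young and 1.53 in aged libraries.

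Shares within a family do not depend on how libraries are scaled. Timp1 made up 1.62% of the TIMP UMIs in the young sham library against 20.1% after I/R, and 6.24% against 13.6% in the aged libraries. Timp2 made up 28.9%, 11.6%, 30.7% and 18.6%, in the same order, and Timp3 between 54.3% and 60.8%. The I/R libraries thus held a larger share of Timp1 and a smaller share of Timp2 than the sham library of their age.

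Mmp3 made up 10.2% of the UMIs of the 3 metalloproteases in the young sham library against 33.9% after I/R, and 23.9% against 40.0% in the aged libraries. Mmp2 made up 54.7%, 31.6%, 47.5% and 30.8%. Adamts1 made up 22.6% of the UMIs of the 3 ADAMTS members in the young sham library against 65.7% after I/R, and 29.2% against 46.1% in the aged libraries. Adamts5 was the complement but for Adamts4, at 76.5%, 26.6%, 69.7% and 50.4%.

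The balance of inhibitor to protease was described by ratios chosen after the values were seen. Timp1 had 0.111 UMIs for each UMI of Mmp2 in the young sham library against 4.21 after I/R, and 0.419 against 1.45 in the aged libraries. TIMPs made up 56.6% of the UMIs of all 10 members in the young sham library against 71.4% after I/R, and 62.0% against 61.8% in the aged libraries. The TIMP share was therefore higher in I/R in the young libraries and like that of sham in the aged ones.

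**Figure D3:**
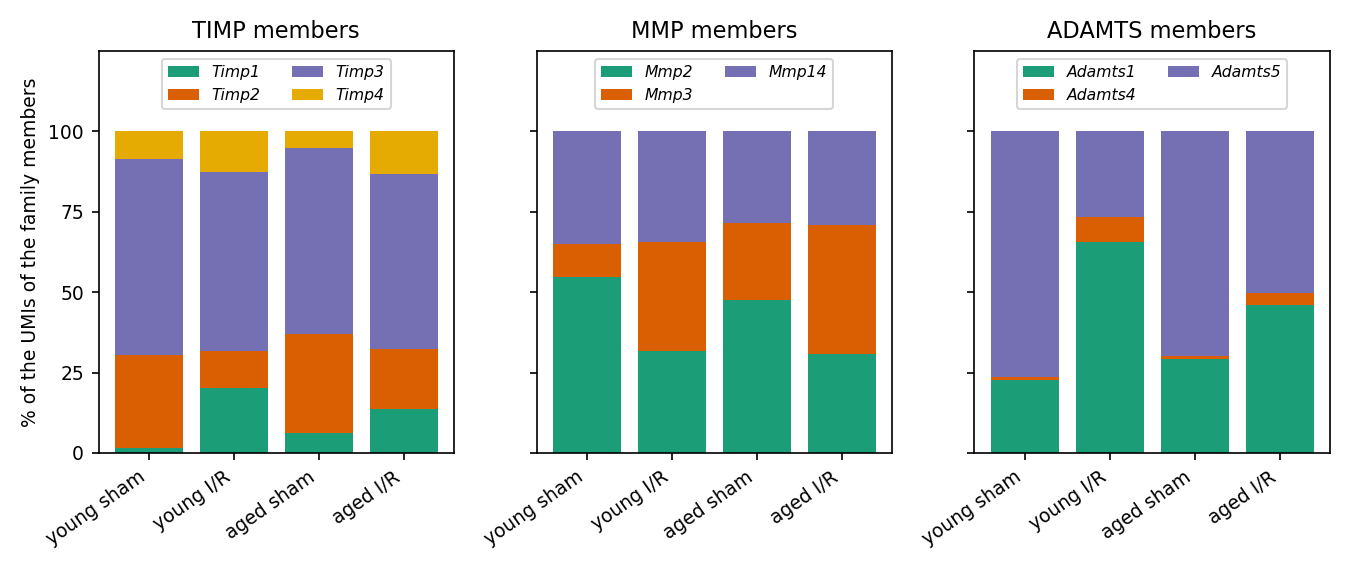
Share of each member in the UMIs of its family, in %, for the 4 libraries. Adamts1 takes 65.7% of the ADAMTS bar in young I/R and 22.6% in young sham, and Timp1 20.1% and 1.62% of the TIMP bar.

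Of 20 other metalloprotease genes 19 were in the files and 13 passed the minimum of UMIs in the young comparison, where 4 were at least 2-fold higher in I/R and 5 lower, against 3.26% and 27.0% of all genes. Mmp9, gelatinase B, a protease carried by neutrophils, was at 0.542 CPM in the young sham library against 5.67 after I/R, and 1.43 against 5.18 in the aged libraries. Mmp15, a membrane-bound relative of Mmp14, was at 46.7, 21.5, 48.0 and 29.9 CPM, and Mmp23 at 16.6, 6.07, 20.7 and 12.1 CPM. In the aged libraries 4 of 13 were at least 2-fold higher and 2 lower, against 5.65% and 3.02% of all genes.

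Of the 16 other ADAMTS genes 13 were counted in each I/R comparison. In young I/R 1 was at least 2-fold higher and 5 lower, where 3.26% and 27.0% of all genes were. In aged I/R none was 2-fold higher or lower, where 5.65% and 3.02% of all genes were, so few were to be found among 13. Adamts10, which is known to bind fibrillin, was at 112 CPM in the young sham library against 26.7 after I/R, and 78.1 against 55.7 in the aged libraries. Adamts7 was at 18.4, 3.81, 12.4 and 9.39 CPM. Adamts5, Adamts7 and Adamts10 each had their lowest level in young I/R, the library in which the median gene was also low. Adamts19 (3.44, 0.958, 1.81 and 2.11 CPM) and, among the ADAMTS-like proteins, which lack the protease domain, Adamtsl1 (3.33, 1.16, 2.93 and 2.58 CPM) and Adamtsl3 (7.08, 2.52, 6.89 and 8.46 CPM) were lowest there as well. Adamtsl2 was lowest in aged I/R, at 4.79 CPM against 15.4 in aged sham.

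Of the 7 ADAM sheddases 2 were at least 2-fold higher in I/R at both ages, where 3.26% of all genes were in young and 5.65% in aged libraries. Adam8, a leukocyte protease, was at 1.32, 8.999, 2.78 and 6.77 CPM, with young before aged and sham before I/R, and Adam12 at 1.43, 6.18, 1.45 and 3.04 CPM. Among genes that act on the activation of proteases, Plaur, the urokinase receptor, was at 0.890, 4.97, 1.38 and 2.38 CPM. Plat, tissue plasminogen activator, was highest in aged I/R, at 14.3 CPM against 7.13 in young I/R. The proprotein convertase gene Pcsk6 was at 31.5, 12.1, 30.6 and 18.8 CPM.

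Other inhibitors are not given in full here. Serpine2, protease nexin 1, was at 18.8, 18.2, 45.3 and 32.7 CPM, in the same order of libraries. Reck, a membrane-anchored inhibitor, was at 3.06, 1.54, 3.00 and 3.56 CPM. Vcan, the versican substrate of ADAMTS proteases, was at 45.5 and 47.6 CPM in young and aged sham and at 63.4 and 64.1 CPM in young and aged I/R.

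Marker sums of the cell types also differed between the libraries. The 17 fibroblast markers summed to 1494 CPM in the young sham library against 1132 after I/R, and 1985 against 1442 in the aged libraries. The log2 ratio of this sum was −0.40 in young and −0.46 in aged libraries. The median ratio of the 17 markers was −0.63 in young libraries, more negative than the all-gene median (−0.51), and −0.43 in aged ones. The endothelial, macrophage, mural, lymphocyte, erythroid, Schwann and adipocyte marker sums were also lower in I/R at both ages by library totals. The cardiomyocyte sum gave a log2 ratio of −0.28 in young and 0.37 in aged libraries, and the mesothelial sum −1.05 and 0.29. The median ratio of the cardiomyocyte markers was −0.10 in young and −0.07 in aged libraries. In young libraries the endothelial (−0.15), macrophage (−0.42), mural (−0.44), erythroid (−0.39), fibroblast and cardiomyocyte sum ratios turn positive with gene-wise scaling, which adds 0.47. The lymphocyte, Schwann, adipocyte and mesothelial sum ratios stay negative. Before that scaling the median marker ratio was −0.63 for fibroblast and −0.64 for mural markers, and both medians stay negative with it. The 8 neutrophil markers summed to 22.4, 114, 30.2 and 111 CPM. Of these, 6 of 8 in young and 7 of 8 in aged libraries were at least 2-fold higher in I/R, where 3.26% and 5.65% of all genes were. The 17 macrophage markers summed to 413, 307, 651 and 542 CPM, higher in aged than in young libraries under both conditions. The part of these cell types in the levels of the members was not tested.

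Barcodes gave little information on the source of the members. The most UMIs of a member in 1 barcode was 5, and the variance of the UMIs of a member across barcodes was 0.997 to 1.05 times that of Poisson draws from the library pool. The same ratio was 1.07 to 1.19 for the fibroblast markers and 18.8 to 43.4 for the erythroid markers. Few UMIs did not always hold this ratio near 1. In young sham it was 1.204 for the mesothelial markers, from 450 UMIs, and 1.008 for the lymphocyte markers, from 198 UMIs. For Adamts5 it was 1.05 there, from 2085 UMIs. The fibroblast markers held 38611 UMIs in young sham, so their ratio cannot be set directly against that of a member. How evenly the members were spread over cells was not tested. The 241086 barcodes with at least 200 detected genes fell into 12 clusters. By their markers 2 were mural-like and 1 erythroid-like, and none of the 12 could be named a fibroblast, endothelial, macrophage or cardiomyocyte cluster. Other settings did name some of these: fibroblast and endothelial clusters at Leiden resolution 2, and a macrophage cluster with genes scaled over all libraries together.

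In the cluster led by Meg3, Hmcn2 and Gm17167 (21591 barcodes), 14 of 17 fibroblast markers were at least 1.5-fold above all other clustered barcodes. Members were no part of the genes clustered. Adamts5 was at 92.3 CPM in it and 48.1 elsewhere, Mmp2 at 47.5 and 30.3, Mmp14 at 36.4 and 25.3, Mmp3 at 37.9 and 28.2, and Timp2 at 76.8 and 64.4. These 5 members had their highest level of the 12 clusters there. The number was 2 with Leiden resolution 2 and 3 with genes scaled over all libraries together, and Mmp2 alone was highest there under all 3 settings. It counts only the cluster with the most fibroblast markers up, which was unnamed under all 3 settings. At Leiden resolution 2 Adamts5 came after a cluster of 28 barcodes in which it had 2 UMIs. Another cluster at that resolution, of 1145 barcodes, was named fibroblast. Timp3 (198.2 CPM) and Mmp14 (39.6 CPM) were highest in it, with the next clusters close, at 197.6 and 38.3 CPM. Timp1 was highest in an unnamed cluster of 1682 barcodes, at 74.7 CPM (90 UMIs) against 41.1 elsewhere. Of those barcodes 87.6% were from aged I/R. In that cluster 9 macrophage markers were at least 1.5-fold up. Its 10 leading genes held no macrophage marker but held S100a8, a neutrophil marker. At Leiden resolution 2 Timp1 was highest in a cluster of 16014 barcodes, at 51.1 CPM. With genes scaled over all libraries together it was highest in a cluster of 485 barcodes, at 75.2 CPM from 20 UMIs. Of its barcodes 87.8% were from young I/R, where the whole library was at 75.3 CPM. Both clusters were unnamed, and the class with the most markers up was lymphocyte (3 markers) in the former and neutrophil (2 markers) in the latter. Timp4, Adamts1 and Adamts4 did not differ in the cluster led by Meg3 from other barcodes beyond counting error.

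Within this cluster Adamts5 was at 194 CPM in the young sham library against 42.4 after I/R, and 103 against 87.5 in the aged libraries. I/R over sham gave a log2 ratio of −2.19 (−2.55 to −1.84) in young and −0.24 (−0.43 to −0.05) in aged libraries. Timp1 had 3 UMIs in it in young sham and 191 in young I/R, and the log2 ratio was 4.90 (3.34 to 7.19). Neither was particular to this cluster. In every group of barcodes (clusters, with the mural-like ones pooled) that had UMIs of the gene in both young libraries, the ratio of Timp1 was 3.52 to 5.29 and that of Adamts5 −2.19 to −1.07.

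**Figure D4:**
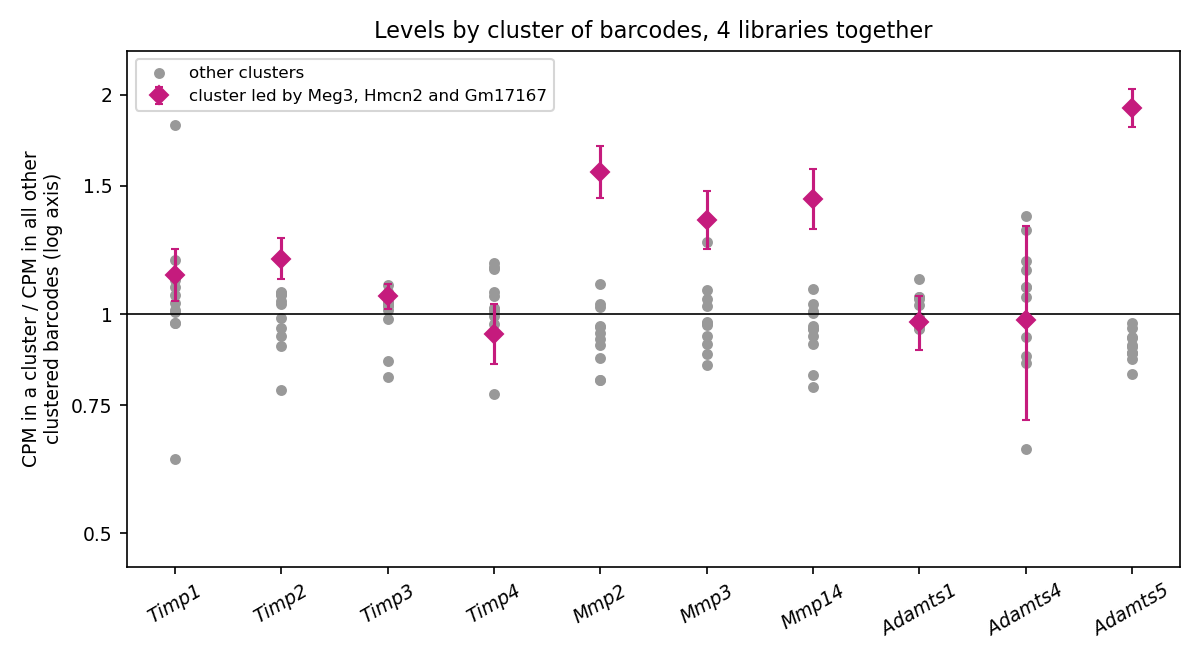
CPM of each member in a cluster over its CPM in all other clustered barcodes, on a log axis, for the cluster led by Meg3, Hmcn2 and Gm17167 (diamonds, with 95% intervals of counting error) and the other clusters (grey points). Adamts5 stands at 1.92 in that cluster and Mmp2 at 1.57, while the highest point of another cluster is 1.82, for Timp1.

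Profiles over the 48 sums of cluster by library were compared with 10540 genes for the 8 members with at least 100 UMIs in every library, as a description, since the sums share libraries and depth. Each sum had the same weight, however few its barcodes. The cluster of 1682 barcodes had 18 in young sham, where Timp2 was at 698 CPM from 5 UMIs. How far the correlations rest on such small sums was not tested. The genes most like Adamts5 were Abca8b (Pearson r = 0.955), Tnxb and Ecm2. Those most like Adamts1 were Rtn4 (0.961), Msn and Ccn2, and those most like Mmp2 were Plscr4 (0.905), Pmp22 and Itga6. Mmp3 was most like Apod (0.931), Canx and Irs2, and Timp4 most like Lrg1 (0.931), Ehd4 and Pdlim5. Timp2 was most like Gm4070 (0.9398), Ctnnb1 and Sulf2, Timp3 most like Cd36 (0.845), Cab39 and Actb, and Mmp14 most like Emilin1 (0.795), Ifi204 and Alkbh5.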

How the data were processed

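Libraries were made by the authors on the 10x Chromium system, and reads were processed per library with Cell Ranger 6.0.2 (mm10, from the submitters' processing notes). The deposited values are raw UMI counts per gene and barcode. UMIs were summed over all deposited barcodes of a library, with no calling of cells or removal of empty droplets, and divided by the library total (CPM). Ratios were taken where a gene had 20 or more UMIs in the compared pair. Members and gene lists were chosen with earlier results of these data known. List genes were named with at least 100 UMIs in 1 library and a 2-fold ratio in 1 comparison. Vcan, which stayed under 2-fold in every comparison, was named outside this rule. Barcodes with at least 200 detected genes were clustered with scanpy 1.11.5 at Leiden resolution 1, leaving out the members and protease lists, and no doublets were sought. Intervals used scipy 1.17.1 and were tested on simulated Poisson counts only, which hold no spread between mice or libraries. TMM factors came from edgeR 4.0.16, and no count test was run. Positions are from GENCODE on GRCm38. Of the genes that meet the naming rule, 1 is not reported here.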

Additional observations from a re-analysis of the deposited data

Results flagged for a closer look

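In 5 genes of the lists around the members, I/R over sham ran in opposite directions in young and aged libraries, beyond counting error and with both scalings. The aged minus young difference of the log2 ratio was 2.06 for Mmp11 (−1.58 in young, 0.48 in aged), −3.17 for Mmp12 (2.09 and −1.08), 1.71 for Adamts3 (−1.16 and 0.55), 1.70 for Adamts12 (−1.38 and 0.31) and 2.004 for Pcsk5 (−1.30 and 0.71). With 1 library per condition, these differences were not tested. A difference of 1 or more was found in 33.8% of 15410 genes and a difference of −1 or less in 4.06%. All but that of Mmp12 thus lay in the direction that was common among genes. The share of all genes that meet the rule of opposite directions is not given here. None of the 10 members met this rule.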

How the results depend on the processing

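No paired analysis was possible because each condition has 1 library, and no library could be left out. The members at least 2-fold higher in aged than young I/R went from 2 to 0 with gene-wise scaling, with TMM scaling and with totals without mitochondrial genes, Gm42418 and Malat1, and those 2-fold lower from 0 to 2, 2 and 1. These settings change the library totals alone. At a fold of 1.5 the counts were 2 lower in young I/R over sham, 5 higher in aged I/R over sham, and 4 higher and 2 lower in aged over young I/R. The other counts stayed within 1.5 times under every setting run.

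The members highest in the cluster with the most fibroblast markers numbered 5, against 2 with Leiden resolution 2 and 3 with genes scaled over all libraries together. The 2 do not include Timp3 and Mmp14, which were highest in another cluster, named fibroblast. At Leiden resolution 2 a cluster of 28 barcodes led for 4 members with 1 or 2 UMIs each. Leaving out clusters under 100 barcodes, a limit chosen after seeing this, gave 3. Of the 40 log2 ratios, only those of Mmp14 in young I/R over sham and Adamts4 in aged over young sham, both near 0, changed sign under any setting. Their sizes moved more. Outside the counting interval fell 28 of the 40 with gene-wise scaling, 26 with TMM scaling and 17 with totals without mitochondrial genes, Gm42418 and Malat1. In barcodes with at least 200 detected genes 10 did so. Without barcodes found in another library, an alternative added after seeing the data, the largest change was 0.12.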
